A study of Mus musculus with 2 samples.

Results

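The 7 keratin genes Krt5, Krt14, Krt15, Krt13, Krt8, Krt18 and Krt19 were followed across the cell classes of the embryonic mouse eye. They were taken by name from the 53 keratin genes among the 31053 genes of the deposited counts, and their raw UMIs were read in every cell class of both libraries. A UMI is a unique molecular identifier, the tag that lets each captured transcript be counted once. Single cells came from e13.5 eye cups with cornea, lens and optic nerve dissected away. For the control library 3 samples of genotype Myrf fl/fl were pooled, in which both Myrf alleles carry loxP sites and no Cre is present. For the mutant library the 3 pooled samples were Rx>cre Myrf fl/fl. In the mutant, Cre driven by the Rx transgene acts in the eye field lineage, which gives rise to the neural retina and the retinal pigment epithelium (RPE), whereas surface ectoderm and periocular mesenchyme lie outside that lineage. Each genotype had 1 library, so embryos and library preparation cannot be told apart from genotype, no test was made, and the 95% intervals given in parentheses cover counting error only.

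Keratins are intermediate filament proteins of epithelia that assemble only as pairs of a type I and a type II chain. Krt8 (type II) and Krt18 (type I) form the filaments of simple epithelia, where Krt19 (type I) also occurs. Krt5 (type II) and Krt14 (type I) are the pair of basal cells in stratified epithelia, Krt15 (type I) is a further basal cell keratin, and Krt13 (type I) belongs to suprabasal layers of non-cornified stratified epithelia such as conjunctiva. The RPE is a pigmented simple epithelium of neuroectodermal origin and is known to carry simple epithelial keratins in several vertebrates.

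In the GENCODE annotation of GRCm38, the assembly also called mm10, the type I members Krt13, Krt15, Krt19 and Krt14 lay on the minus strand of chromosome 11 within 90.2 kb. Krt13 lay at chr11:100117327-100121566, Krt15 at chr11:100131758-100135928, Krt19 at chr11:100140810-100148665 and Krt14 at chr11:100203162-100207548. Krt5 lay at chr15:101707070-101712898 and Krt8 at chr15:101996698-102004482, both on the minus strand. Krt18 was the one type I member outside chromosome 11. It lay on the plus strand at chr15:102028180-102032027, with 23.7 kb between it and its partner Krt8, and the pair diverge from each other.

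The bases before the starts of Krt18, Krt8 and Krt5 are shown because these genes stood for the 3 patterns of level described below: highest in RPE-like cells, shared by both epithelia, and found mostly in surface ectoderm-like cells. RefSeq promoter entries (GRCm38.p6) were found for 5 of the 7 members. Krt15 and Krt19 had none. The sequences run 5′ to 3′ on each gene's own strand and stop at the outermost annotated start, so that no transcribed base is included. Capitals mark a match to a searched motif.
Krt18, chr15:102027966-102028179, plus strand: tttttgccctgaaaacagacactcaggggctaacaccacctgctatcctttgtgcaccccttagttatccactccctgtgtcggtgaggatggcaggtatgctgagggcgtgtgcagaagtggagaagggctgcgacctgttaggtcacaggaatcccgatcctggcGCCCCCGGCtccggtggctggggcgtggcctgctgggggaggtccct
Krt8, chr15:102004483-102004592, minus strand: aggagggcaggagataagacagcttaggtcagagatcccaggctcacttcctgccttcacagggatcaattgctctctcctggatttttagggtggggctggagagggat
Krt5, chr15:101712906-101713155, minus strand: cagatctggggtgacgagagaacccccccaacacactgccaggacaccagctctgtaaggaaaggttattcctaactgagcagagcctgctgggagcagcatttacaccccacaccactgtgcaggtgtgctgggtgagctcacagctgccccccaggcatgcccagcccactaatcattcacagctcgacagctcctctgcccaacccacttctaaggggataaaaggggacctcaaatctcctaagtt
Motifs were searched on both strands in the 250 bases before the RefSeq start. They were the AP-2 motif GCCNNNGGC, the GC box GGGCGG, the TATA box TATAAA, the E-boxes CACGTG and CATGTG, the AP-1 motif TGANTCA and the OTX motif TAATCC. The motifs shared no match in these windows. The single match was an AP-2 motif that began 47 bases before the annotated start of Krt18, and 13.7% of 32851 RefSeq windows of the same length held that motif. No other motif matched in any of the 3 windows, and those motifs were present in 6.02% (CACGTG) to 32.7% (GC box) of all windows.

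The libraries held 63483835 UMIs in 6039 barcodes and 75228861 UMIs in 6754 barcodes, control first, with 72 barcode sequences present in both. After filters on genes, mitochondrial share and doublets, 5451 control and 6309 mutant cells were kept in 29 clusters. Clusters were named from marker genes that held no keratin, and keratins took no part in the clustering. All 14 ectoderm markers were detected in the surface ectoderm-like cells of both libraries, and 11 of 13 RPE markers in the RPE-like cells, where Rpe65 and Lrat of the mature visual cycle had 0 UMIs. Unnamed clusters held 15.9% of control and 12.4% of mutant cells, and no lens-like class was formed. Myrf, the gene removed, had 155 UMIs (74.8 CPM) in control and 30 UMIs (20.1 CPM) in mutant RPE-like cells and had 0 UMIs in the surface ectoderm-like cells of both libraries. CPM are UMIs per 1000000 UMIs of the class. Each transcript was counted at its 3′ end, so UMIs were not divided by gene length when members were compared.

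The 66 control and 68 mutant surface ectoderm-like cells gave 637222 and 570996 UMIs. The 253 control and 152 mutant RPE-like cells gave 2072886 and 1494322 UMIs. Median depth was 3241.5 and 1693.5 UMIs per cell in surface ectoderm-like cells and 3919 and 4056.5 UMIs in RPE-like cells, control first. Free RNA was judged from red blood cell-like cells, which should hold no keratin and were deeper, with medians of 22426.5 and 22706 UMIs.

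The members fell into 3 patterns. Of the UMIs in kept cells of both libraries, surface ectoderm-like cells held 89.2% for Krt5 (519 UMIs in all), 89.3% for Krt15 (719 UMIs) and 85.0% for Krt19 (472 UMIs), although these cells were 1.21% of control and 1.08% of mutant cells. Krt8 was divided between both epithelia, with 40.0% of its 824 UMIs in surface ectoderm-like and 32.0% in RPE-like cells. Krt18 was the most abundant member, and 64.8% of its 10134 UMIs were in RPE-like, 23.7% in periocular mesenchyme-like and 4.45% in surface ectoderm-like cells. Krt14 had 37 UMIs, of which 48.6% were in surface ectoderm-like and 0 in RPE-like cells. Krt13 had 1 UMI in all kept cells, in a mutant periocular mesenchyme-like cell, so that the label of an ectodermal or RPE keratin was not borne out for it at this depth. With 0 UMIs it could have reached up to 4.71 CPM in control and 5.25 CPM in mutant surface ectoderm-like cells, taking 3 UMIs as the limit that a count of 0 allows.

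**Figure D1:**
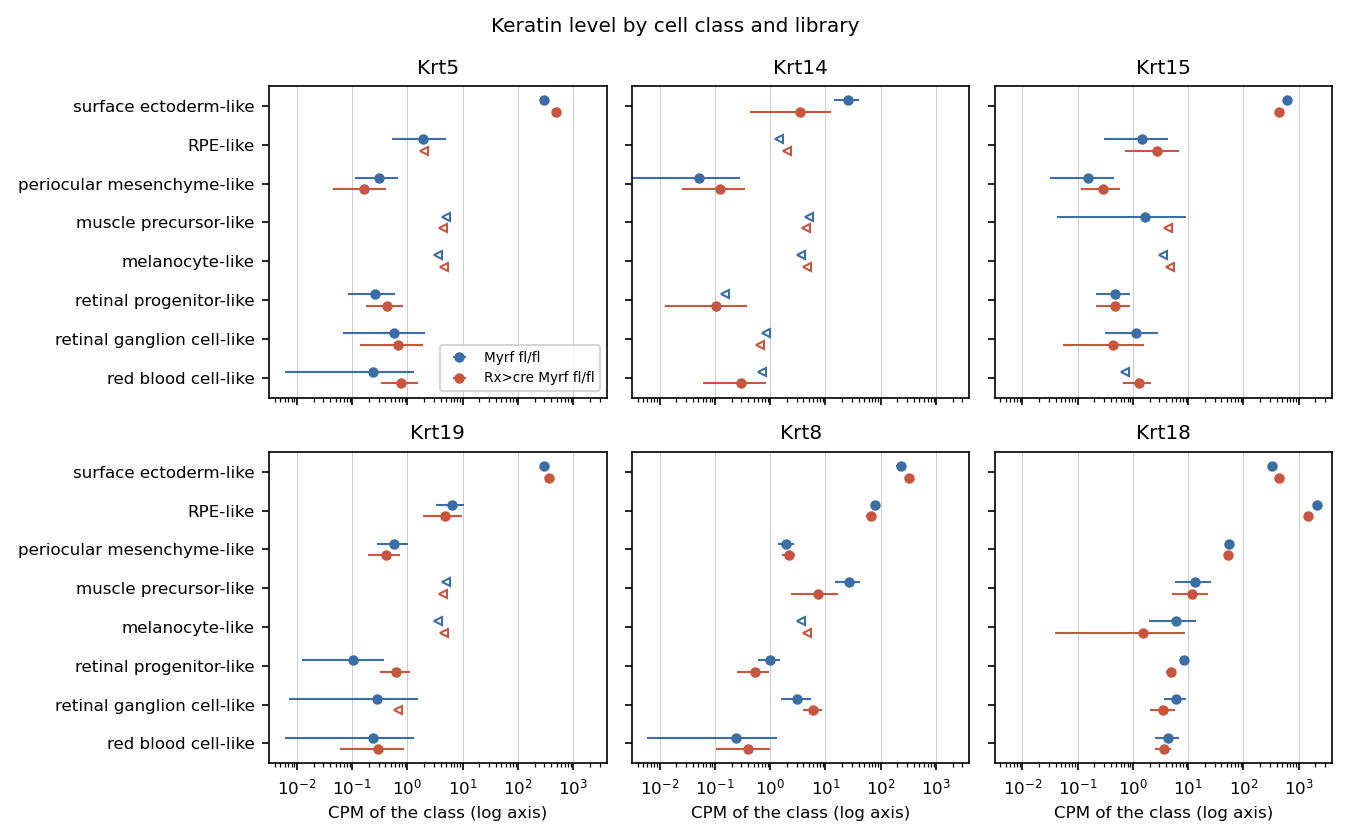
Level of 6 keratins in 8 cell classes, in CPM of the class on a log axis, for the control (blue) and mutant (red) library. Points are class sums, bars 95% Poisson intervals, and open triangles the limit of 3 UMIs where no UMI was found. Of these classes, Krt5, Krt15 and Krt19 were highest in surface ectoderm-like cells and Krt18 in RPE-like cells in both libraries, whereas mutant Krt14, with 2 UMIs in surface ectoderm-like cells, could not be ranked.

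In surface ectoderm-like cells no single keratin prevailed. Krt15 was at 617 CPM (557 to 681) in control and 436 CPM (384 to 494) in mutant cells. Krt5 was at 297 CPM (256 to 342) and 480 CPM (425 to 540). The highest member was thus Krt15 in the control, whereas the intervals of Krt5, Krt15 and Krt18 overlapped in the mutant. Krt18 was at 322 CPM (279 to 369) and 431 CPM (379 to 488). Krt19 was at 300 CPM (259 to 345) and 368 CPM (320 to 421). Krt8 was at 228 CPM (192 to 268) and 324 CPM (279 to 374), the lowest of these 5 in either library. These levels differed between limits on the depth of the cells. In control cells of at most 2000 UMIs Krt8 was at 38.8 CPM, on 1 UMI in a cell of 1132 UMIs, and Krt15 at 349 CPM. In those of at most 20000 UMIs Krt8 and Krt15 were at 355 and 895 CPM.

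Krt14, the textbook partner of Krt5, was far below it. It had 16 UMIs (25.1 CPM, 14.4 to 40.8) in control and 2 UMIs (3.50 CPM, 0.424 to 12.7) in mutant surface ectoderm-like cells. For each UMI of Krt14 the control cells held 11.8 UMIs of Krt5 (7.09 to 21.1) and 24.6 UMIs of Krt15 (14.9 to 43.4). Summed over members, the class held 805 type I and 334 type II UMIs in the control and 707 and 459 UMIs in the mutant. A further 7 of the 37 Krt14 UMIs, 3 control and 4 mutant, lay in an unnamed cluster of 60 control and 63 mutant cells led by Cxcl14, Gm11361, S100a6 and S100a4. There Krt14 was at 34.1 and 46.3 CPM, with 3 of the 4 mutant UMIs in 1 cell, and Krt5 and Krt15 had 0 UMIs. The cluster held only 88095 and 86361 UMIs, so that its CPM rest on few UMIs. With 3 UMIs as the limit of a count of 0, Krt5 and Krt15 could have reached the control level of Krt14. Of the ectoderm markers, Cdh1, Epcam and Trp63 were at 0, but all 14 together were at 45.4 CPM in control and 92.6 CPM in mutant cells. In surface ectoderm-like cells that sum was 2861 and 3026 CPM.

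The members were detected together more often in deep cells. At least 4 of the 7 members were found in 26 control and 24 mutant surface ectoderm-like cells, whose median depths were 20649.5 and 21478 UMIs. No member was found in 13 cells of each library, with medians of 726 and 654 UMIs. Among control cells, 27 of the 33 with Krt5 also had Krt15, and 26 also had Krt8. In the mutant these were 24 and 28 of 33 cells. Krt14 was found in 8 control cells, all of which had Krt15 and 7 of which had Krt5, and in 2 mutant cells. Of the cells of at least 3000 UMIs, 31 of 37 control and 25 of 27 mutant ones held both basal (Krt5, Krt14, Krt15) and simple epithelial (Krt8, Krt18, Krt19) keratins. In 4 control cells of that depth basal keratins alone were found, among them a cell of 4243 UMIs with 19 basal UMIs, and simple keratins alone were found in 2 cells of each library, with at most 2 UMIs.

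Shares of cells with a UMI were compared after each cell was thinned to 3000 UMIs, which left 37 control and 27 mutant surface ectoderm-like cells, while 29 and 41 were too shallow. Krt15 was found in 78.4% (61.8 to 90.2) of control and 59.3% (38.8 to 77.6) of mutant cells. Krt5 was found in 51.4% (34.4 to 68.1) and 59.3% (38.8 to 77.6). The intervals of the libraries overlapped for both genes, and likewise for Krt8 (45.9% and 40.7%), Krt18 (45.9% and 55.6%), Krt19 (37.8% and 48.1%) and Krt14 (5.41% and 0). In thinned red blood cell-like cells the share was 0 in the control and at most 0.483% in the mutant for each member but Krt18, which was found in 0.562% and 0.483%. Before thinning, Krt15 was found in 39 of 66 control and 34 of 68 mutant cells, and Krt5 in 33 cells of each library.

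Between the libraries, surface ectoderm-like cells differed in the make-up of their keratins rather than in one direction. Log2 ratios are of mutant to control, each class sum having been raised by 1 UMI, and a ratio of at least 1 in size was called. Krt5 was higher in the mutant, with a log2 ratio of 0.69 (0.42 to 0.97), as were Krt8 at 0.51 (0.19 to 0.83) and Krt18 at 0.42 (0.15 to 0.70). Krt19 was at 0.29 (0.0055 to 0.59). Krt15 was lower at -0.50 (-0.73 to -0.27), and Krt14 was lower at -2.34 (-6.01 to -0.75). Krt14 was the 1 called member of the 6 compared, on 18 UMIs, and at a mitochondrial limit of 5% its ratio was -1.37 (-5.06 to 0.54), an interval that included 0. Of all 8277 genes compared in these cells, 5.18% were called lower and 4.02% higher, so that 1 of 6 rests on a single sparse gene, and the median of all genes was -0.034. Krt13 could not be compared.

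A few deep cells carried much of these sums. The mutant cell with the most Krt15 held 60 UMIs, 24.1% of the mutant total, and without the top cell of each library the ratio of Krt15 was -0.75. One mutant cell likewise held 52 Krt5 UMIs (19.0%) and one 45 Krt19 UMIs (21.4%). Among cells of at most 20000 UMIs the ratio of Krt5 was 0.016 (-0.39 to 0.41) and that of Krt19 was -0.29 (-0.71 to 0.10). The higher Krt5 and Krt19 of the mutant therefore lay in cells above 20000 UMIs, but not evenly among them. The cells with 52 Krt5 and 45 Krt19 UMIs had 23928 and 30844 UMIs in all. The deepest mutant cell, of 46070 UMIs, held 3 Krt5 and 4 Krt19 UMIs. Summed ectoderm markers were at 2861 CPM in control and 3026 CPM in mutant cells, and RPE markers were at 37.7 and 17.5 CPM, with Otx2, Mitf, Rlbp1, Slc45a2 and Best1 at 0 in both.

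**Figure D2:**
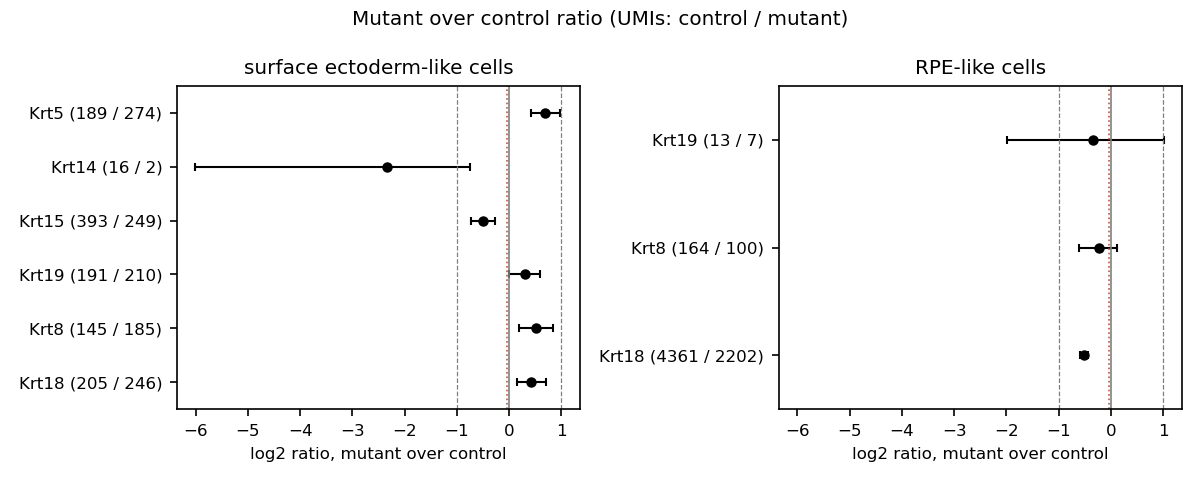
Log2 ratio of mutant over control for the keratins compared in surface ectoderm-like (left) and RPE-like cells (right), with 95% counting intervals. Dashed lines mark a ratio of 1 in size and the dotted red line the median of all genes; numbers beside the names are control and mutant UMIs. Of these, Krt14 in surface ectoderm-like cells lies past -1.

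In RPE-like cells, where Myrf was lower but not absent in the mutant library, Krt18 was the prevailing keratin. Krt18 was at 2104 CPM (2042 to 2167; 4361 UMIs) in control and 1474 CPM (1413 to 1536; 2202 UMIs) in mutant cells. Its partner Krt8 was at 79.1 CPM (67.5 to 92.2; 164 UMIs) and 66.9 CPM (54.4 to 81.4; 100 UMIs). Krt18 in the RPE-like cells was thus above its level in surface ectoderm-like cells in both libraries, whereas Krt8 was below. Krt19 had 13 and 7 UMIs (6.27 and 4.68 CPM), Krt5 had 4 and 0, Krt15 had 3 and 4, and Krt14 and Krt13 had 0 in both libraries.

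The basal keratins in RPE-like cells were near the level of free RNA. After thinning to 3000 UMIs, Krt5, Krt14 and Krt15 were found in none of the 131 control or 80 mutant RPE-like cells, and Krt19 in 1.53% and 0. Ectoderm markers summed to 16 UMIs (7.72 CPM) in control and 28 UMIs (18.7 CPM) in mutant RPE-like cells, with Cdh1, Cldn6, Grhl2, Esrp1 and Tfap2c at 0 in both, and 16 of the 28 mutant UMIs were from Perp. Krt18, in contrast, was found in 95.4% (90.3 to 98.3) of control and 90.0% (81.2 to 95.6) of mutant cells after thinning, and in 83.0% and 80.3% before, against 0.562% and 0.483% (6.19% and 4.91% before) of red blood cell-like cells. Krt8 was found in 16.0% (10.2 to 23.5) and 12.5% (6.16 to 21.8) of thinned RPE-like cells.

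Krt18 was lower in the mutant RPE-like cells, with a log2 ratio of -0.51 (-0.59 to -0.44). Krt8 was at -0.24 (-0.62 to 0.13) and Krt19 at -0.34 (-1.99 to 1.01), intervals that included 0. None of the 3 members compared was called, where 4.37% of the 11201 genes compared were called lower and 2.86% higher. The median of all genes was -0.032, and 15.7% of them had a ratio at or below that of Krt18. The summed RPE markers were also lower, at 13339 CPM in control and 9119 CPM in mutant cells. Whether the lower Krt18 and the lower marker sum had a common source was not tested. In cells of at most 5% mitochondrial UMIs the ratio of Krt18 was -0.38 (-0.51 to -0.25), and in those of at most 2000 UMIs it was -0.23 (-0.60 to 0.11). A lower Krt18 was not confined to RPE-like cells, as its ratio in retinal progenitor-like cells was -0.76 (-1.14 to -0.39). It was -0.06 (-0.18 to 0.05) in periocular mesenchyme-like and 0.42 (0.15 to 0.70) in surface ectoderm-like cells.

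Single RPE-like cells showed the same difference over the bulk of the distribution. Among cells of at least 3000 UMIs, the median was 22.5 Krt18 UMIs per 10000 UMIs of the cell in 131 control cells, with quartiles of 12.9 and 29.6 and a highest value of 69.3. In 80 mutant cells the median was 14.8, with quartiles of 5.95 and 23.6 and a highest value of 60.8. The distributions overlapped throughout, and 3 control and 6 mutant cells of that depth had no Krt18 UMI. Cells of 1 library share their source and are not replicates.

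**Figure D3:**
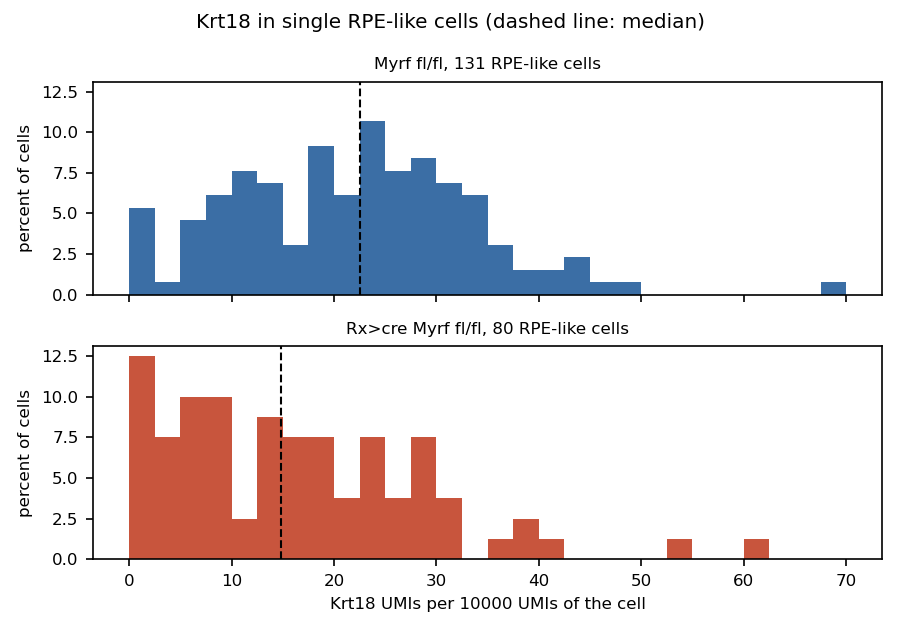
Krt18 UMIs per 10000 UMIs in single RPE-like cells of at least 3000 UMIs, as the percent of 131 control (top) and 80 mutant cells (bottom). Dashed lines mark the medians of 22.5 and 14.8; both distributions reach from 0 to above 60.

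The balance of Krt18 to its partner Krt8 differed between the epithelia. Control surface ectoderm-like cells held 1.41 Krt18 UMIs per Krt8 UMI (1.14 to 1.76), and mutant ones 1.33 (1.09 to 1.62). Control RPE-like cells held 26.6 (22.8 to 31.3) and mutant ones 22.0 (18.0 to 27.2). The intervals of the classes were far apart in both libraries, and those of the libraries overlapped within each class. A processed pseudogene, Krt8-ps, is annotated but was not among the 53 keratin genes of the deposited counts. How the counting treated reads that match both was not tested, so the absolute level of Krt8 is less certain than its comparison between classes. Almost every RPE-like cell with Krt8 also had Krt18, 59 of 60 in the control and 38 of 39 in the mutant, whereas 28.1% and 31.1% of the cells with Krt18 had Krt8. No type II keratin was found at a level near that of Krt18 in RPE-like cells: all type II keratins together had 245 control and 142 mutant UMIs, against 4560 and 2331 UMIs of type I. In surface ectoderm-like cells type II keratins made up 460 of 1306 and 660 of 1408 keratin UMIs.

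**Figure D4:**
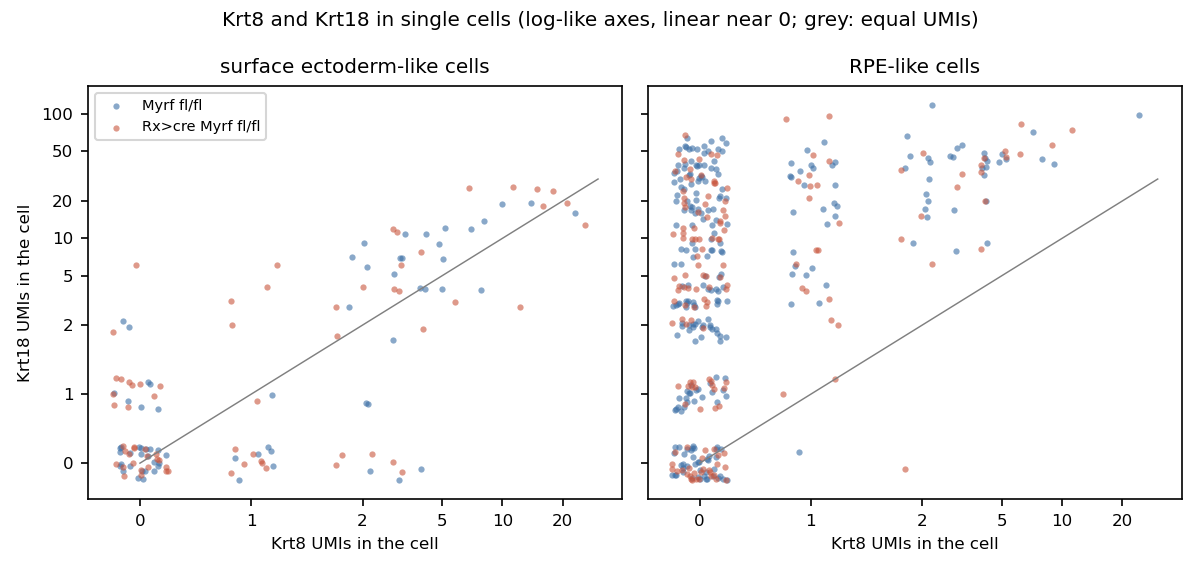
Krt8 (x) and Krt18 (y) UMIs of single surface ectoderm-like (left) and RPE-like cells (right) of the control (blue) and mutant (red) library, on log-like axes that are linear near 0, with small offsets to separate points. The grey line marks equal UMIs; surface ectoderm-like cells lie on both sides of it, and of the RPE-like cells 210 of 253 (control) and 120 of 152 (mutant) lie above it, most of the others (42 and 29) having neither gene.

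Outside the epithelia, Krt18 was also found in periocular mesenchyme-like cells, and there in some clusters far more than in others. Over the 1393 control and 1837 mutant cells of the class it was at 55.7 CPM (1091 UMIs) and 53.3 CPM (1312 UMIs), with a log2 ratio of -0.06 (-0.18 to 0.05). The cluster led by Cldn11, Col9a3, Mpped2 and Sox9 was highest, at 216 CPM (198 to 234) in control and 180 CPM (165 to 196) in mutant cells, and 77.1% and 66.1% of its cells had a Krt18 UMI. The cluster led by the tendon and muscle connective tissue genes Meox1, Scx and Msc had 93.7 CPM (81.5 to 107) and 93.1 CPM (83.5 to 103). In the cluster led by Osr2, Foxl2 and Alx1 it was at 6.33 and 8.33 CPM, near the 4.26 and 3.60 CPM of red blood cell-like cells. The other 3 clusters lay between 20.7 and 30.1 CPM. Krt8 was at 1.94 and 2.15 CPM over the class, so that here too Krt18 exceeded Krt8, by 28.7 (20.8 to 40.8) and 24.8 (18.8 to 33.2) UMIs per UMI.

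Krt18 was also set beside an RPE transcript in the same cells. For each UMI of Pmel, a melanosome gene and the most abundant RPE marker, RPE-like cells had 0.331 and 0.296 Krt18 UMIs and red blood cell-like cells 0.562 and 0.359. The mesenchyme cluster led by Cldn11 had 13.8 and 21.2, and that led by Meox1 had 3.24 and 12.7. In the cluster led by Osr2 the values were 1.00 and 0.864, on 12 and 19 Krt18 UMIs. The mutant value was within the range of retinal and blood classes. In the control only photoreceptor precursor-like cells, with 1 UMI of each gene, were as high, and the next value was 0.692 in neurogenic precursor-like cells. The other 3 clusters spanned 2.12 to 3.05 (control library) and 1.37 to 6.79 (mutant library). Melanocyte-like cells, the neural crest pigment cells, had 0.00289 and 0.000798, with 5 and 1 Krt18 UMIs among 846963 and 644178 UMIs. Of the pigment cells, Krt18 was thus found in RPE-like cells, and in melanocyte-like cells (5.90 and 1.55 CPM) near its level in red blood cell-like cells. Krt8 had 0 UMIs in the melanocyte-like cells of both.

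**Figure D5:**
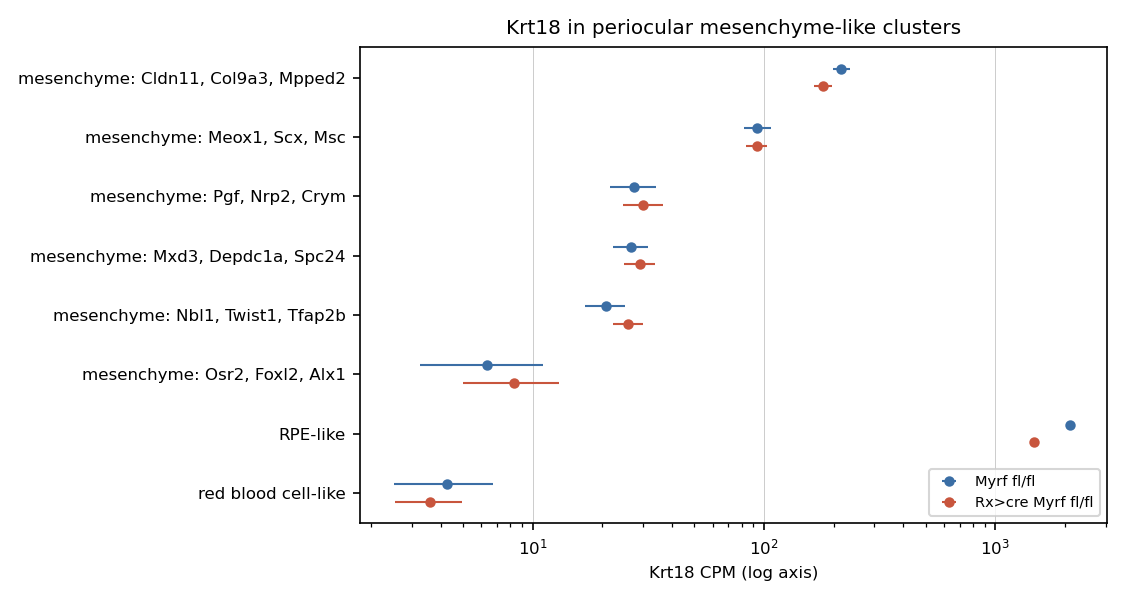
Krt18 in CPM on a log axis, in the 6 periocular mesenchyme-like clusters, each named by its 3 leading genes, and in RPE-like and red blood cell-like cells, for the control (blue) and mutant (red) library with 95% Poisson intervals. The clusters span from 6.33 CPM, near the red blood cell-like level, to 216 CPM.

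In the classes of the neural retina the members were low, but some had CPM above those of red blood cell-like cells. Krt18 in retinal progenitor-like cells was at 8.44 CPM (7.19 to 9.84) in control and 4.98 CPM (4.03 to 6.08) in mutant cells, with 0.540 and 0.720 Krt18 UMIs per Pmel UMI. The interval lay above that of red blood cell-like cells in the control (2.52 to 6.73) and overlapped it in the mutant (2.54 to 4.96). Progenitor-like cells were shallower, with a control median of 11198.5 UMIs against 22426.5 in red blood cell-like cells. The latter had 0.562 and 0.359 Krt18 UMIs per Pmel UMI, control first. Whether Krt18 in progenitor-like cells exceeded free RNA was not tested. In retinal ganglion cell-like cells Krt18 was at 5.93 and 3.53 CPM, near the red blood cell-like level. Krt8 in ganglion cell-like cells had 11 UMIs (3.11 CPM, 1.55 to 5.56) and 27 UMIs (5.96 CPM, 3.93 to 8.68). Its 0.236 CPM and 0.389 CPM in red blood cell-like cells were lower, with intervals that did not overlap. Ganglion cell-like cells were also shallower, with medians of 5070 and 4801 UMIs. After thinning to 3000 UMIs, Krt8 was found in 0.833% (0.101 to 2.98) of control and 1.94% (0.716 to 4.18) of mutant ones. Red blood cell-like cells then gave 0 (0 to 2.05) and 0.483% (0.0586 to 1.73), and these intervals overlapped. Of the 27 mutant UMIs, 8 lay in 1 cell. Whether Krt8 in ganglion cell-like cells exceeded free RNA was not tested. In amacrine or horizontal precursor-like cells Krt8 had 0 UMIs in the control, which allows up to 6.35 CPM, and 9 UMIs in the mutant (14.5 CPM, 6.62 to 27.5). Those 9 UMIs lay in 3 of 59 mutant cells, 7 of them in 1 cell. In muscle precursor-like cells Krt8 had 16 UMIs (26.4 CPM) in control and 5 UMIs (7.29 CPM) in mutant cells, and Krt18 had 8 in each. Krt15 in red blood cell-like cells had 0 and 13 UMIs, of which 11 lay in 1 mutant cell. An unnamed cluster led by the platelet genes Pf4, Nrgn and Gp9 held 15 Krt18 UMIs, in 25% of its 16 control cells, and 0 in 14 mutant cells. RPE markers summed to 2908 CPM over the 16 control cells. The cluster held only 25101 and 26859 UMIs, and the interval of the mutant 0 reached 137 CPM.

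Beyond the members, 13 of the other 46 keratins had at least 10 UMIs in the kept cells and 17 had none. Krt7, a type II partner of simple epithelia, was the one with an ectodermal pattern, at 112 UMIs (176 CPM) in control and 183 UMIs (320.5 CPM) in mutant surface ectoderm-like cells and 2 and 8 UMIs in RPE-like cells. Krt10 (7776 UMIs) and Krt1 (819 UMIs), the textbook pair of cornified epidermis, were spread over most classes. In RPE-like cells they were at 87.3 and 78.3 CPM and 32.8 and 22.1 CPM, control first, but these cells held only 3.83% and 12.3% of their UMIs. In surface ectoderm-like cells Krt10 was at 64.3 and 70.1 CPM and Krt1 at 17.3 and 22.8 CPM. Krt12, Krt17, Krt20, Krt24, Krt26, Krt28, Krt77 and Krt79 had 11 to 41 UMIs each, and at most 1 UMI per library in surface ectoderm-like cells. Krt17 and the corneal keratin Krt12 were at 0 there.

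Genes with the pattern most like that of each member were sought over 28 columns, 14 named classes in both libraries, among 13550 genes other than keratins with at least 100 UMIs. The Pearson correlations describe log2(CPM + 1), and the columns share libraries, depth and free RNA. Krt5 was most like Fermt1 (0.98), Calml3, Dsp, Wnt6 and Cldn6, and genes much like Krt15 included Fermt1 (0.96), 4631405K08Rik, Calml3 and Sfn. Dsp, Wnt6, Cldn6 and Sfn were among the markers that named the surface ectoderm-like class. Their likeness to keratins of that class was thus partly set by the naming. Krt19 was most like Cldn3 (0.99), Prss8, Dsp, Fermt1 and Arsi, and Krt14 most like 4631405K08Rik (0.95), Cldn6, Esp6, Cldn4 and Rab25. Cldn3, Cldn4 and Cldn6 are claudins of tight junctions, and Dsp is the desmosomal plaque protein that anchors keratin filaments. Krt18 was most like Ntn1 (0.95), Clu, Clic6, Aass and Cdh3, of which Cdh3 encodes P-cadherin, and Krt8 most like Bcam (0.87), Synpo2, Upk3bl, Ntn1 and Lypd2. Among members, Krt5 and Krt15 were most alike (0.97), Krt8 and Krt18 stood at 0.82, and Krt14 and Krt18 were least alike (0.45).

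Genes that hold keratin filaments or define ectoderm were compared by lists. In surface ectoderm-like cells, 9 of 12 desmosome genes could be compared, of which 7 were lower and 2 higher in mutant cells, and their median log2 ratio was -0.14. Perp, a desmosomal membrane protein, was at 253 and 233 CPM, Dsp at 91.0 and 82.3 CPM, and the plaque gene Pkp3 at 48.6 and 45.5 CPM. Of the 6 hemidesmosome and anchorage genes compared, 3 were lower and 3 higher, with a median of 0.0052. The tetraspanin gene Cd151 was at 127 and 135 CPM, and the plakin genes Dst and Plec, which link filaments to the basal membrane, were at 47.1 and 45.5 CPM and at 45.5 and 33.3 CPM. The medians of these lists stayed near that of all genes. Of the 9 desmosome genes 1 was called higher, where 4.02% of all genes compared were called higher, and no hemidesmosome gene was called.

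Of 11 adhesion and tight junction genes compared, 7 were lower and 4 higher in mutant surface ectoderm-like cells, with a median of -0.27. Epcam, an epithelial adhesion molecule, was at 557 and 384 CPM, with a log2 ratio of -0.54 (-0.79 to -0.29). Cldn3 was at 126 and 196 CPM, a ratio of 0.64 (0.22 to 1.08), and Cldn7 at 104 and 208 CPM, a ratio of 1.00 (0.56 to 1.47) just under the limit for a call. Epcam was thus lower in the mutant where Cldn3 and Cldn7 were higher, and none of the 11 genes was called. Of 10 ectodermal transcription factors compared, 4 were lower and 6 higher, with a median of 0.040. Of these 1 was called higher, against 4.02% of all genes compared. Pax6 was at 339 and 296 CPM, Tfap2b at 89.5 and 71.8 CPM, and Trp63, the regulator of stratified epithelia, at 56.5 and 43.8 CPM.

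Other intermediate filaments gave 5 genes to compare in surface ectoderm-like cells, 3 lower and 2 higher, with a median of -0.092. Of the 5, 1 was called higher, against 4.02% of all genes compared. Vim, the filament protein of mesenchyme and neuroepithelium, was at 336 CPM in control and 588 CPM in mutant cells, a log2 ratio of 0.81 (0.56 to 1.06). The nuclear lamin genes Lmnb1 and Lmna were at 137 and 128 CPM and with 17 and 12 UMIs. In RPE-like cells Vim was at 1423 and 1594 CPM, a ratio of 0.16 (0.09 to 0.24), so that Krt18 was above Vim in the control and below it in the mutant. Lmnb1 was at 45.8 and 81.0 CPM there, a ratio of 0.82 (0.42 to 1.22). Of 7 filament genes compared in RPE-like cells 3 were lower and 4 higher, and 2 were called lower, against 4.37% of all genes compared.

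The remaining lists gave few genes in RPE-like cells. Desmosome genes gave 3, 1 lower and 2 higher. Pkp2, a plaque gene of simple epithelia, had 21 UMIs (10.1 CPM) in control and 26 UMIs (17.4 CPM) in mutant cells, and Perp had 1 and 16 UMIs (0.482 and 10.7 CPM), a log2 ratio of 3.56 (1.79 to 9.86). Hemidesmosome genes gave 4, with 2 lower and 2 higher; Cd151 was at 48.2 and 44.8 CPM and Dst at 44.4 and 21.4 CPM, a ratio of -1.02 (-1.68 to -0.46). Adhesion genes gave 5, with 2 lower and 3 higher, and the tight junction scaffold Tjp1 was at 28.0 and 28.8 CPM. The 3 ectodermal transcription factors compared were all lower, among them Pax6 at 224 and 202 CPM. In these 4 lists, 1 desmosome and 1 adhesion gene were called higher, against 2.86% of all genes compared. One hemidesmosome gene was called lower, against 4.37% of all genes.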

How the data were processed

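Droplet libraries of e13.5 eye cup cells were made on the 10X Genomics platform from 3 pooled samples per genotype. The authors deposited raw UMI counts for every gene in every called barcode, made with Cell Ranger 7.1.0 on mm10, not normalized and not yet filtered by the study. The use of intronic reads is not given in the sources used here. The submitters' processing notes also name Seurat 4.1.1.

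Barcodes with under 200 genes (5 control, 9 mutant) or over 15% mitochondrial UMIs (515 and 371) were left out. Scrublet in scanpy 1.11.5 marked 68 and 65 doublets at an expected rate of 5%, and these were removed. The limit of 2000 UMIs per cell in the study's methods would leave 1181 and 1099 cells and was run as an alternative. With Seurat 5.3.0 (R 4.3.3), the libraries were integrated by anchors and clustered on 30 principal components at resolution 0.8, using 1992 of 2000 variable features, leaving out the 8 keratins among them. A cluster was named X-like with at least 3 class markers among its top 100 genes and no more markers of another class than of its own among its top 10. These thresholds were set after clusters had been seen. The members, markers and gene lists were chosen with earlier results of these data known.

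UMIs were summed per class and library and given as CPM with exact Poisson intervals, shares of cells with Clopper-Pearson intervals, and log2 ratios with exact conditional binomial intervals, in scipy 1.17.1, for genes with at least 10 UMIs over both libraries. Genes were named by rule: other keratins with at least 10 UMIs, the 3 members of each list highest in surface ectoderm-like and the 2 highest in RPE-like cells, and the 5 genes most alike in pattern. Some genes that the rule names are not reported here. Genes of other kinds were named as markers or leading genes of clusters. The ratio was tested on simulated counts. Alternatives were other filters on cells, clusterings, class rules, class totals and depths of thinning. Libraries of later stages were not analysed here.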

Additional observations from a re-analysis of the deposited data

How the results depend on the processing

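The log2 ratios of Krt14, Krt15, Krt5, Krt8 and Krt18 in surface ectoderm-like cells and of Krt18 in RPE-like cells kept their sign under every alternative that gave a value. Across these, Krt14 ranged from -2.62 to -1.37, the latter at a mitochondrial limit of 5% with an interval that included 0 (-5.06 to 0.54), and Krt18 in RPE-like cells from -0.56 to -0.23. A limit of 2000 UMIs per cell left 26 control and 35 mutant surface ectoderm-like and 105 control and 62 mutant RPE-like cells. Ratios in surface ectoderm-like cells were then 0.27 for Krt5, -0.11 for Krt15, 2.63 for Krt8 (on 1 control UMI), 0.14 for Krt18 and -0.15 for Krt19. In RPE-like cells they were 0.60 for Krt8 and -0.23 for Krt18. Under a limit of 20000 UMIs, Krt5 was at 0.016 and Krt19 at -0.29 in surface ectoderm-like cells. Without the cell with the most Krt15 UMIs in each library, Krt15 was at -0.75. At a mitochondrial limit of 5%, Krt18 in RPE-like cells was at -0.38. Krt8 in RPE-like cells changed sign in 2 of 12 alternatives and Krt19 in 1 of 10. The other ratios stayed within the counting interval first given, in 62 of 70 values in surface ectoderm-like and 31 of 34 in RPE-like cells. Levels also moved where deep cells were left out. Across alternatives the control surface ectoderm-like level of Krt8 ranged from 38.8 CPM, on 1 UMI, to 355 CPM. That of Krt19 ranged from 194 to 573 CPM, Krt15 from 349 to 895, Krt5 from 294 to 523 and Krt14 from 0 to 33.5. The mutant level of Krt19 ranged from 179.8 to 465 CPM and of Krt18 from 269.7 to 561 CPM. Leaving out barcodes shared by the libraries was chosen after seeing the data. The causes of these shifts were not tested. No paired analysis was possible because each genotype had 1 library.

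Depth limits what can be said of Krt14 and Krt13, with 37 and 1 UMIs. The intervals leave out differences between embryos, dissections and library preparations, and cells of 1 library vary more than counting error.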

Other observations

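Krt73, Krt77 and Krt90, keratins outside the list, were found mainly in classes of the neural retina. Krt73, a type II keratin of the hair follicle sheath, had 86.5% of its 275 UMIs in amacrine or horizontal precursor-like cells. It was at 262 CPM (218 to 313; 124 UMIs in 20 cells) in the control and 183 CPM (151 to 220; 114 UMIs in 19 cells) in the mutant, beside 297 and 480 CPM of Krt5 in surface ectoderm-like cells. Krt77, another type II keratin, had 7 and 16 UMIs in the same class, 14.8 and 25.7 CPM. Krt90 had 360 of its 465 UMIs in retinal progenitor-like cells, at 10.9 CPM (9.50 to 12.5) in control and 7.80 CPM (6.60 to 9.16) in mutant cells, and 0 in surface ectoderm-like and RPE-like cells. In amacrine or horizontal precursor-like cells all type I keratins together had 38 and 37 UMIs, against 146 and 162 UMIs of type II.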
